A study of Rattus norvegicus with 12 samples.

Results

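The transcripts that shifted when Wnt3a was added to ND7/23 cells, with or without menthol, are described here. All 12 of the 12 libraries analysed here entered, 6 with Wnt3a against 6 without. ND7/23 is a hybrid line made by fusing rat dorsal root ganglion neurons with a mouse neuroblastoma, and the reads were mapped to the rat genome (mRatBN7.2). The sources used here do not say what became of reads from mouse transcripts. Each of 4 groups held 3 libraries after 6 h: untreated control, 100 μM menthol (a TRPM8 agonist), 100 ng/ml Wnt3a, and 100 μM menthol with 100 ng/ml Wnt3a. The side without Wnt3a was therefore the control and menthol groups, and the other side was the Wnt3a group and the group given both, so that menthol was present in 3 libraries on each side. The study asked how TRPM8 activation bears on Wnt/β-catenin signaling. The labels do not say whether replicates were separate cultures, so the p-values measure the spread between these libraries, which may be technical.

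Wnt3a is a secreted ligand that binds a Frizzled receptor together with the co-receptors Lrp5 or Lrp6. In the absence of ligand, a destruction complex built on the axin scaffolds, with Apc and the kinases GSK-3β and casein kinase 1, marks β-catenin for degradation. When the ligand binds, β-catenin accumulates, enters the nucleus and acts with TCF and LEF factors on target genes, several of which encode inhibitors of the pathway itself. In the dorsal root ganglion, Wnt ligands are known for roles in sensory neuron specification, axon growth and pain.

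Reads on genes numbered 36914722 to 38837023 per library, the 10 most abundant genes took 6.01 to 6.35% of them, and 3 reads on a gene of 1 kb were worth 0.0772 to 0.0813 FPKM (fragments scaled by gene length and by library size). The neuronal label was only partly borne out by defining markers. Of 22 listed neuronal markers, 5 reached a mean of 0.5 FPKM, namely Uchl1, Hand2, Isl1, Map2 and Nefh, while Tubb3, the neuron-specific tubulin, had 0 to 6 reads per library. None of 14 sensory neuron channels and peptides reached 0.5 FPKM, and their summed level was 0.731 to 1.45 FPKM across the libraries. Of 13 genes typical of fibroblasts, chosen after the values were seen, 12 reached a mean of 0.5 FPKM and 10 a mean of 5 FPKM. Their means ran from 0.176 FPKM for Postn and 2.36 FPKM for Col3a1 to 141 FPKM for Thy1 and 884 FPKM for Vim. The summed level of the 13 fibroblast-type genes was 2190 to 2240 FPKM in control, 1970 to 2050 with menthol, 1960 to 2020 with Wnt3a and 1840 to 1890 with both. Thbs1, described below, is a member of that sum, at a mean of 787, 700, 594 and 590 FPKM in the 4 groups in that order. Tnc, Prrx1 and Prrx2 are members too, and of these Prrx1 and Prrx2 rose with Wnt3a. The sum is therefore not separate from their changes, and its relation to them was not tested.

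Wnt3a changed few genes, and each by little. Among the 11451 genes with a mean of at least 0.5 FPKM, 85 (0.742%) were called, that is, had an adjusted p under 0.05 in the limma fit with menthol as a covariate. Of these, 48 rose (0.419% of those tested) and 37 fell (0.323%). The counts depended on the fit. They were 54 in all without control replicate 1 or without control replicate 2, and 221 (99 raised and 122 lowered) by limma voom on recovered reads. The median size of the change was 0.19 on the log2 scale for called genes and 0.04 for all tested genes, and the median change of all genes was 0.00316. No called gene changed more than 2-fold, 3 (Axin2, Tnfrsf19 and LOC679519) changed more than 1.5-fold, and 22 more than 1.2-fold. At an unadjusted p under 0.05 there were 1559 genes (13.6%). The 6 libraries with Wnt3a did not overlap the 6 without for 57 of the 85 called genes, and for 134 (1.17%) of all tested genes. Every log2 change below is a difference of log2(FPKM + 0.1) between the sides with and without Wnt3a, adjusted for menthol, with its SE in the same unit.

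The 2 Wnt feedback genes among the leading rises are shown with the sequence of their promoters, because a TCF/LEF motif lay in both. Axin2 encodes a scaffold of the destruction complex and is a known direct target of β-catenin that feeds back on the pathway. Tnfrsf19 encodes TROY, a receptor of the tumour necrosis factor family, and is also a known β-catenin target. The 300 bases run from 250 before to 50 after the annotated start (RefSeq, GRCr8), for Axin2 at chr10:94398535-94398834, plus strand, and for Tnfrsf19 at chr15:39334517-39334816, minus strand. Capitals mark a match, on either strand, to the heptamer CTTTGAA, to the heptamer CTTTGAT, to the heptamer CTTTGTA or to the heptamer CTTTGTT.
Axin2: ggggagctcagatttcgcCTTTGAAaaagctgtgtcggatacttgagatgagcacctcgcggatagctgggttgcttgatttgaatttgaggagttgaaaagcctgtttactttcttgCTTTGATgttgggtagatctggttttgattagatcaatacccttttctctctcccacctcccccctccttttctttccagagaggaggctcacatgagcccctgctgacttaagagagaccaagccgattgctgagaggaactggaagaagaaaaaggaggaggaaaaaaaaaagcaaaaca
Tnfrsf19: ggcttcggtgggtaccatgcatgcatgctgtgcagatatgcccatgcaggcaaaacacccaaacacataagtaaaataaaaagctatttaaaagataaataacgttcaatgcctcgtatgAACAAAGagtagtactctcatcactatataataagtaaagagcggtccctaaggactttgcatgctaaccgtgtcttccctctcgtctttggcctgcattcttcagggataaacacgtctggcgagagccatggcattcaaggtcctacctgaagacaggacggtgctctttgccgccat
Axin2 held matches at −232 and −132 from the start, and Tnfrsf19 held 1 on the opposite strand at −130. Such a match is a description of letters and not of binding. Over the matched promoters, 5 of 39 raised genes (12.8%), 3 of 30 lowered genes (10%) and 1061 of 9250 tested genes (11.5%) held at least 1 match, against 16.8% of all promoters in the table. The promoters of Klf5, Isl1 and Irx3, which also rose, held no match in this window.

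Axin2 was at 5.07, 5.07 and 4.72 FPKM in control, 4.55, 5.19 and 5.28 with menthol, 6.56, 7.31 and 7.45 with Wnt3a, and 7.83, 8.71 and 8.37 with menthol and Wnt3a together. All 6 libraries with Wnt3a lay above all 6 without, and those with both agents were the highest. The mean rose from 4.98 to 7.70 FPKM (log2 change 0.62, SE 0.056, limma adjusted p = 0.000112). Tnfrsf19 was at 7.6, 6.93 and 6.96 FPKM in control, 7.83, 7.48 and 7.29 with menthol, 11.8, 10.1 and 13.5 with Wnt3a, and 11.1, 11.2 and 9.65 with menthol and Wnt3a together. Here too the 2 sides did not overlap, and the widest spread was among the libraries with Wnt3a alone. The log2 change was 0.60 (SE 0.066, limma adjusted p = 0.000375).

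Klf5, a zinc finger transcription factor, had the smallest p of all genes. It was at 8.6, 8.42 and 8.86 FPKM in control, 9.29, 9.52 and 8.65 with menthol, 11.9, 11.9 and 12 with Wnt3a, and 12.8, 12.4 and 13.1 with menthol and Wnt3a together. The 6 libraries with Wnt3a sat in a narrow band above the 6 without, and the mean rose from 8.89 to 12.4 FPKM (log2 change 0.47, SE 0.032, limma adjusted p = 3.44e-06). Isl1, a LIM-homeodomain factor needed for the specification of sensory and motor neurons, was at 11.3, 11.4 and 10.8 FPKM in control, 10.7, 9.28 and 10.8 with menthol, 15.8, 17.6 and 14.1 with Wnt3a, and 15.8, 15.6 and 15 with menthol and Wnt3a together. It was the only tested neuronal marker of the 5 to be called, and its libraries did not overlap (log2 change 0.54, SE 0.051, limma adjusted p = 0.000113). The 4 genes Axin2, Tnfrsf19, Klf5 and Isl1 were called in all 22 alternatives that kept the adjusted p as the only threshold.

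**Figure D1:**
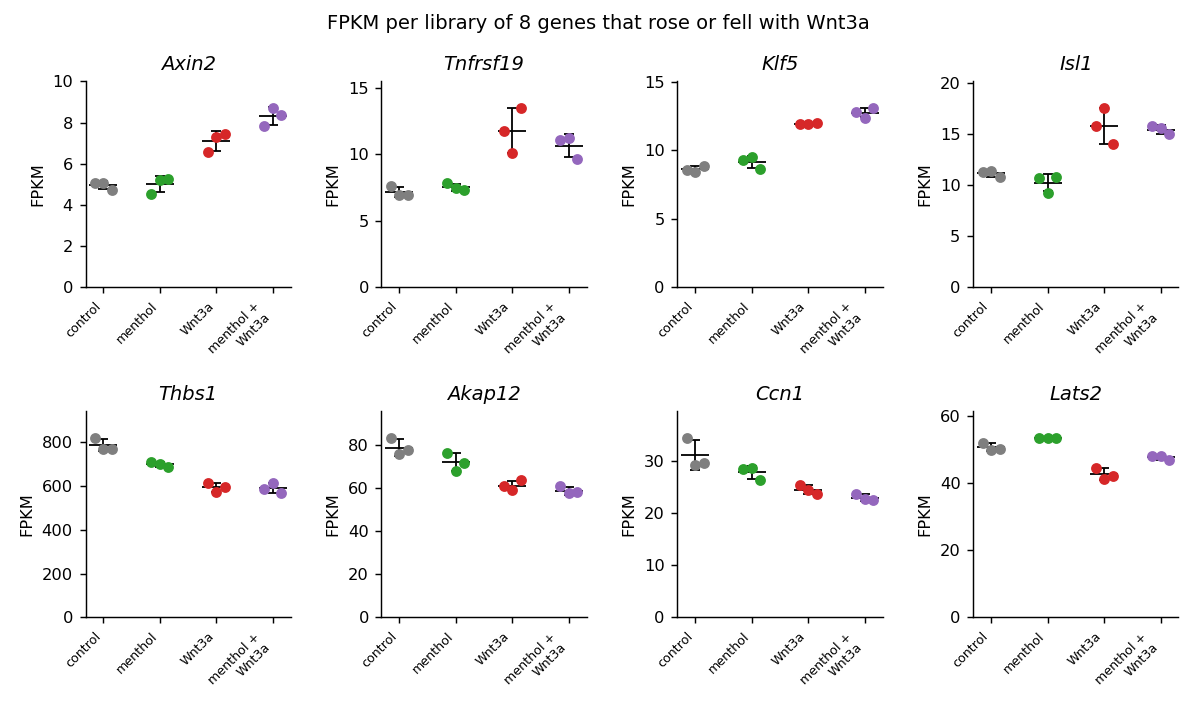
FPKM of 8 called genes in the 12 libraries, 1 panel per gene, each axis starting at 0. Points are libraries, horizontal bars are group means and whiskers are the SD of 3 libraries. In the upper row the 6 libraries with Wnt3a lie above the 6 without, and in the lower row they lie below them.

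The other genes among the 12 largest rises had lower levels or smaller changes. Prdm1, which encodes the transcriptional repressor Blimp-1, was at 1.95, 2 and 2.2 FPKM in control, 1.81, 1.89 and 1.87 with menthol, 2.48, 2.53 and 2.58 with Wnt3a, and 2.35, 2.39 and 2.31 with menthol and Wnt3a together, with no overlap between the sides (log2 change 0.31, SE 0.053, limma adjusted p = 0.0115). Rasgrp3, an activator of Ras proteins, rose from 14.1 to 17.2 FPKM (log2 change 0.28, limma adjusted p = 0.0171), and was called in 9 of the 12 fits that left out 1 library. Tm4sf1, a tetraspanin-like membrane protein, rose from 8.23 to 10 FPKM (log2 change 0.28, limma adjusted p = 0.00778), although its level was lower with menthol, so that 2 of the libraries with both agents were within the range of the controls. It was called in 21 of the 22 alternatives (limma adjusted p 0.00113 to 0.256). Ppfibp2, which encodes liprin-β2, was at 1.1 FPKM without and 1.5 with Wnt3a (log2 change 0.41, limma adjusted p = 0.0342). LOC120098513, an uncharacterised locus, had a log2 change of 0.52 (limma adjusted p = 0.0383), and Hddc2, which encodes a nucleotide phosphatase, one of 0.36 (limma adjusted p = 0.0479). Csrp3, a LIM protein of striated muscle, was at 10.9, 11.1 and 11.1 FPKM in control, 7.84, 9.76 and 10.5 with menthol, 14.4, 15.3 and 13.9 with Wnt3a, and 11.6, 10.3 and 10.5 with menthol and Wnt3a together. Its control libraries overlapped those with both agents (log2 change 0.30, limma adjusted p = 0.0356). The summed level of 26 muscle markers was 15.3 to 17.8 FPKM in control, 15.6 to 18.6 with menthol, 17.9 to 19.4 with Wnt3a and 14.3 to 18 with both. Of the 26, only 6 reached a mean of 0.5 FPKM, and Tnnt3 (7.38 FPKM) and Tnnc1 (4.58 FPKM) were the highest. The part of the sum in the change of Csrp3 was not tested. Ppfibp2 was called in 2 of the 12 fits that left out 1 library, LOC120098513 and Csrp3 in 3, and Hddc2 in 4.

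The rises included Irx5, Crnde and Irx3, 3 genes that follow each other among the tested genes of rat chromosome 19. Of these, Irx3 and Irx5 were chosen after their values were seen. Irx3 and Irx5 encode Iroquois homeodomain factors that pattern the nervous system and other tissues, and Crnde is a long non-coding RNA. In the RefSeq table (GRCr8), no other gene starts between Irx5 and Crnde, and 6 untested genes start between Crnde and Irx3. Called genes were adjacent among the tested genes in 3 pairs. The remaining pair, Ndrg1 and St3gal1 on chromosome 7, moved in opposite directions (log2 change 0.13 and −0.22). Irx3 was at 21.2, 20 and 19.2 FPKM in control, 21.2, 22.2 and 22.6 with menthol, 23.3, 22.9 and 23.9 with Wnt3a, and 27.1, 26.9 and 28.2 with menthol and Wnt3a together. The sides did not overlap, and the group with both agents was the highest (log2 change 0.27, SE 0.032, limma adjusted p = 0.000954). Crnde was at 17.9, 17.9 and 16.4 FPKM in control, 19.3, 19.9 and 20 with menthol, 20.8, 23.9 and 20.3 with Wnt3a, and 22.3, 24.4 and 23.9 with menthol and Wnt3a together, again without overlap (log2 change 0.28, SE 0.041, limma adjusted p = 0.00372). Irx5 was at 13, 13.6 and 13.2 FPKM in control, 13.6, 12.4 and 13.3 with menthol, 15, 15.1 and 14.8 with Wnt3a, and 15.6, 16.4 and 15.3 with menthol and Wnt3a together (log2 change 0.22, SE 0.032, limma adjusted p = 0.00396). All 3 were called in each of the 22 alternatives. Whether the reads were counted by strand is not given in the sources used here. Without it, reads of genes that overlap on opposite strands cannot be told apart. The paired-related homeobox genes Prrx1 and Prrx2, also chosen after their values were seen, rose too, by 0.14 (limma adjusted p = 0.0332) and 0.18 (limma adjusted p = 0.0129). Prrx1 was called in 3 of the 12 fits that left out 1 library, and Prrx2 in all 12. Over the 22 alternatives Prrx2 was called in 20, with a limma adjusted p of up to 0.0596.

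A cytokine and its receptor moved in opposite directions. Il33 encodes an alarmin cytokine, and Il1rl1 encodes its receptor ST2 (both chosen after their values were seen). Il33 was at 24.5, 25.5 and 27.8 FPKM in control, 24.7, 23.4 and 25.1 with menthol, 30.4, 30.9 and 30.4 with Wnt3a, and 28.4, 27.6 and 27.7 with menthol and Wnt3a together. Its highest library without Wnt3a, control replicate 3, overlapped the group with both agents (log2 change 0.22, SE 0.031, limma adjusted p = 0.00372). Il1rl1 was at 137, 143 and 148 FPKM in control, 126, 121 and 121 with menthol, 133, 134 and 125 with Wnt3a, and 104, 110 and 105 with menthol and Wnt3a together. Each group with menthol was lower than its counterpart without, so the 2 sides overlapped, while within each menthol condition every library with Wnt3a lay below every library without (log2 change −0.16, SE 0.028, limma adjusted p = 0.0107). Without the menthol term its adjusted p was 0.359, and the range over the alternatives was 0.000143 to 0.359. Tgfbr1, the type I receptor for TGF-β, rose from 19.0 to 21.2 FPKM (log2 change 0.16, SE 0.026, limma adjusted p = 0.00976), with every library with Wnt3a above every library without.

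**Figure D2:**
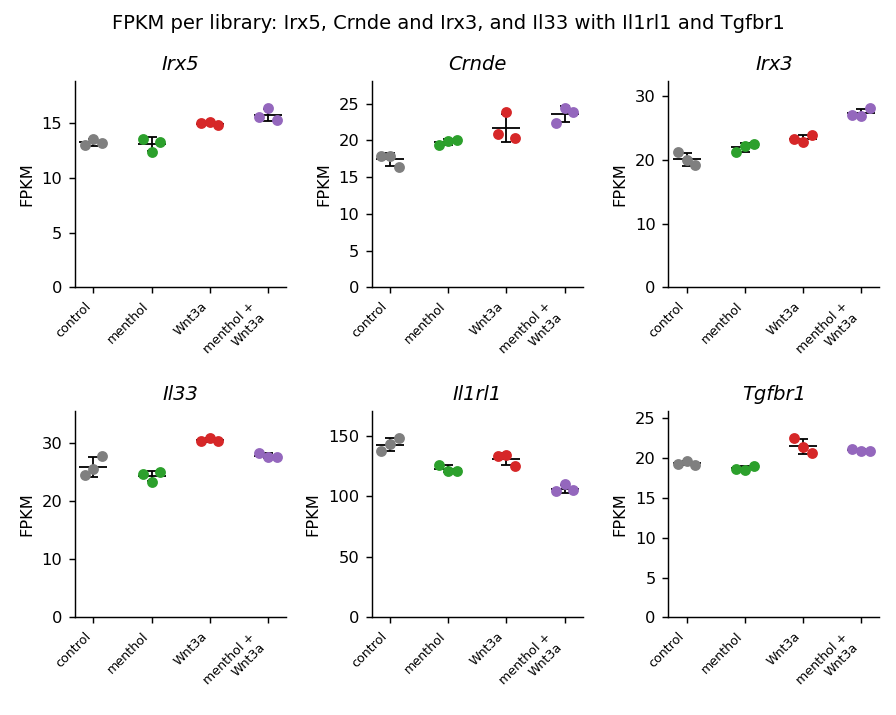
FPKM of Irx5, Crnde, Irx3, Il33, Il1rl1 and Tgfbr1 in the 12 libraries, each axis starting at 0. Points are libraries, horizontal bars are group means and whiskers are the SD of 3 libraries. The first 3 genes and Tgfbr1 are higher in all 6 libraries with Wnt3a, while Il1rl1 also differs by menthol.

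Thbs1, Ccn1 and Tnc, which encode proteins of the extracellular matrix, were among the 12 largest falls. In the KEGG pathway of ECM-receptor interaction, looked up after the values were seen, 2 of 41 tested genes fell (4.88%) and none rose. Those 2 were Thbs1 and Tnc themselves, and 0.323% of all tested genes were called as lowered. At an unadjusted p under 0.05, 10 of the 41 were lower and 2 higher, against 6.29% and 7.33% of all tested genes. The pathway median was −0.08 without menthol and 0.00594 in menthol. Thbs1, which encodes thrombospondin 1, a matrix protein that binds cell receptors and activates TGF-β, was at 819, 771 and 771 FPKM in control, 711, 700 and 689 with menthol, 616, 571 and 594 with Wnt3a, and 588, 613 and 569 with menthol and Wnt3a together. It was the most abundant of the 85 called genes, its 6 libraries with Wnt3a lay below the 6 without, and menthol alone was intermediate (log2 change −0.33, SE 0.033, limma adjusted p = 0.000174). Ccn1, a matricellular protein and a known target of YAP and of serum response factor, was at 34.4, 29.3 and 29.7 FPKM in control, 28.5, 28.6 and 26.4 with menthol, 25.4, 24.5 and 23.6 with Wnt3a, and 23.7, 22.7 and 22.5 with menthol and Wnt3a together (log2 change −0.31, SE 0.040, limma adjusted p = 0.00157). Its sides were apart as well. Tnc, tenascin C, fell from 90.3 to 76.1 FPKM (log2 change −0.24, SE 0.040, limma adjusted p = 0.00976), though menthol replicates 2 and 3 lay below the Wnt3a group, and its adjusted p was 0.226 without the menthol term (range over the alternatives 2.56e-05 to 0.226).

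Akap12, an anchoring protein that holds protein kinase A and other kinases at the membrane, was at 83.1, 75.6 and 77.5 FPKM in control, 76.4, 67.8 and 71.7 with menthol, 60.9, 59 and 63.5 with Wnt3a, and 60.9, 57.5 and 58 with menthol and Wnt3a together. Libraries with Wnt3a were all lower than those without (log2 change −0.33, SE 0.034, limma adjusted p = 0.000228). Lats2, the kinase of the Hippo pathway that phosphorylates YAP, was at 52, 49.8 and 50.1 FPKM in control, 53.3, 53.2 and 53.2 with menthol, 44.5, 41.3 and 42.1 with Wnt3a, and 48, 48.1 and 46.8 with menthol and Wnt3a together. It was lower in every library with Wnt3a, and higher with menthol than without at either level of Wnt3a (log2 change −0.20, SE 0.025, limma adjusted p = 0.00117). LOC679519, an uncharacterised locus with 8 to 27 reads per library, showed the largest change in size (1.57 to 0.790 FPKM, log2 change −0.90, SE 0.15, limma adjusted p = 0.00976). At such counts the value rests on few reads, and its adjusted p was 0.0527 without an FPKM minimum (range over the alternatives 0.00349 to 0.0738).

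The remaining largest falls included transcription factors and enzymes. Maf, a basic leucine zipper factor, was at 6.87, 6.68 and 6.28 FPKM in control, 6.93, 7.05 and 6.36 with menthol, 5.73, 5 and 5.62 with Wnt3a, and 5.63, 5.63 and 5.7 with menthol and Wnt3a together, with no overlap (log2 change −0.27, SE 0.044, limma adjusted p = 0.00977). Gli3, a zinc finger factor of Hedgehog signaling that acts mainly as a repressor, fell by 0.23 on the log2 scale (SE 0.046, limma adjusted p = 0.0277), by more without menthol (−0.32) than in menthol (−0.14), and was called in 7 of the 12 fits that left out 1 library. Creb3l2, a membrane-bound factor of the endoplasmic reticulum, fell from 1.86 to 1.48 FPKM (log2 change −0.32, limma adjusted p = 0.0412), and was called in 1 of those 12 fits. Dusp3, a phosphatase that acts on MAP kinases, fell from 14.2 to 12.2 FPKM (log2 change −0.22, limma adjusted p = 0.0317), and was called in 3 of them. Scara3 fell by 0.23 (limma adjusted p = 0.00844), St3gal1, a sialyltransferase, by 0.22 (limma adjusted p = 0.00253), and the locus LOC691921 by 0.34 (limma adjusted p = 0.0107).

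Other called genes, chosen after their values were seen, had smaller changes. Tmem158, a membrane protein induced by Ras, was at 39.7, 37.1 and 40 FPKM in control, 37.6, 36.6 and 38.4 with menthol, 44.9, 45.4 and 44.8 with Wnt3a, and 44.2, 43.8 and 42.9 with menthol and Wnt3a together. The sides did not overlap, and the change was 0.21 without menthol and 0.22 in menthol (log2 change over all libraries 0.21, SE 0.023, limma adjusted p = 0.000375). Slc4a7, a sodium bicarbonate cotransporter, was at 29.3, 28.8 and 28.4 FPKM in control, 28.2, 29 and 29.6 with menthol, 34.3, 31.7 and 35 with Wnt3a, and 33.5, 34.5 and 33 with menthol and Wnt3a together, also without overlap (log2 change 0.22, SE 0.027, limma adjusted p = 0.00107). P2ry2, a G protein-coupled receptor for extracellular nucleotides, was at 20.5, 19.3 and 18.6 FPKM in control, 19.6, 20.8 and 19.9 with menthol, 21.7, 22 and 22.7 with Wnt3a, and 23.3, 24.5 and 24.1 with menthol and Wnt3a together (log2 change 0.22, SE 0.031, limma adjusted p = 0.00291). These 3 genes were called in each of the 22 alternatives. Among cytokine signaling genes, the kinase Jak2 rose by 0.19 on the log2 scale (limma adjusted p = 0.0266), while Il6st, the shared receptor subunit gp130, fell by 0.15 (limma adjusted p = 0.0158) and Csf1, a growth factor of macrophages, fell by 0.12 (limma adjusted p = 0.0266). With 1 library left out, Jak2 was called in 5 of 12 fits, Il6st in 10 and Csf1 in 4. Sgk1, a kinase induced by glucocorticoids and serum, fell from 56.9 to 52 FPKM (log2 change −0.13, limma adjusted p = 0.0107), and Gja1, the gap junction protein connexin 43, fell from 99.3 to 90.8 FPKM (log2 change −0.13, limma adjusted p = 0.0139). Bhlhe40, a clock-linked repressor, rose from 67.4 to 73.7 FPKM (log2 change 0.13, limma adjusted p = 0.0107). Sgk1, Gja1 and Bhlhe40 were called in all 12 fits that left out 1 library. Of the 22 alternatives, Gja1 and Bhlhe40 were called in 20 each, with a limma adjusted p of up to 0.0657 and 0.0779. Wrap73, Lipa, Trim47 and Galnt3 rose by 0.16 to 0.27 on the log2 scale, and Dab2, Septin11, Parm1 and Insyn1 fell by 0.11 to 0.15.

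Lists of Wnt pathway genes are read against the 0.742% of all tested genes that were called (0.419% raised and 0.323% lowered). Of 23 listed feedback regulators and nuclear targets, 10 were tested, 2 of these (20%) rose (Axin2 and Tnfrsf19), none fell and the median change was 0.02, against 0.00316 for all genes. The median was 0.03 without menthol and 0.09 in menthol, and it was −0.000182 without menthol with Wnt3a replicate 3. Tcf7, a factor that partners β-catenin, had a log2 change of 0.23 (limma adjusted p = 0.364). None of the 13 tested receptors and co-receptors passed, with changes from −0.33 to 0.08. The most negative were Fzd1, at 2.28 FPKM without and 1.79 with Wnt3a (log2 change −0.33, limma adjusted p = 0.0945), and Fzd4 (−0.22, limma adjusted p = 0.11). None of 26 tested members of the β-catenin and destruction complex list passed, with changes from −0.20 to 0.31. Ctnnb1, which encodes β-catenin, had a change of −0.013 (limma adjusted p = 0.778), and Gsk3b, one of −0.032 (limma adjusted p = 0.666). Of 17 other listed Wnt targets, none rose and 1 (5.88%) fell, namely Jun, a subunit of the AP-1 factor (34.1 to 30.6 FPKM, log2 change −0.16, limma adjusted p = 0.0245). Jun was called in 4 of the 12 fits that left out 1 library. Myc had a change of −0.12 (limma adjusted p = 0.122).

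In 4 other lists, many members had an unadjusted p under 0.05 in 1 direction while few were called. For comparison, 839 of all tested genes (7.33%) were higher and 720 (6.29%) lower at that threshold, and 0.742% were called. The members of a list share libraries and cells. Of 13 tested targets of YAP and of serum response factor, which report on actin tension and Hippo signaling, 2 (15.4%) fell (Ccn1 and Lats2) and none rose. At an unadjusted p under 0.05, 8 were lower and 1 higher, and the median change was −0.11 (−0.14 without menthol and −0.06 in menthol). Ccn2, the close relative of Ccn1, had a change of −0.17 (limma adjusted p = 0.177), and Ankrd1 one of −0.19 (limma adjusted p = 0.122). Of 23 tested collagens, laminins and integrins, which form and bind the matrix, none was called. At an unadjusted p under 0.05, 9 were lower and 1 higher, and the 9 became 5 without control replicate 1 or Wnt3a replicate 2. The median was −0.09 without menthol and −0.00843 in menthol.

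Of the 25 cell cycle and DNA replication genes, all tested, 22 were lower with Wnt3a, 12 of them at an unadjusted p under 0.05, and the median change was −0.07, with −0.06 without menthol and −0.08 in menthol. The count of 12 was 7 without menthol with Wnt3a replicate 2. The 1 called member was Mcm3, a subunit of the replicative helicase, at 21.5 FPKM without and 18.9 with Wnt3a (log2 change −0.19, limma adjusted p = 0.0449), and it was called in 2 of the 12 fits that left out 1 library. The other helicase subunits Mcm2 and Mcm6 had changes of −0.13 and −0.14 (limma adjusted p = 0.102 and 0.0641). The 21 genes of glycolysis and the hypoxia response went the other way. In this list, 18 were higher with Wnt3a, 13 of them at an unadjusted p under 0.05, none was lower at that threshold, and the median change was 0.06 (0.06 without and 0.05 in menthol). Ndrg1, a stress and hypoxia responsive gene, was at 94.2, 98.4 and 98.6 FPKM in control, 99.6, 96.9 and 92.8 with menthol, 110, 108 and 107 with Wnt3a, and 104, 103 and 102 with menthol and Wnt3a together. It was the 1 called member (log2 change 0.13, SE 0.023, limma adjusted p = 0.0173), and its adjusted p was 0.0519 without Wnt3a replicate 1 (range over the alternatives 0.00287 to 0.0775). The glycolytic enzymes were abundant and their changes small, as in Ldha, lactate dehydrogenase A, at 1381 FPKM without and 1466 with Wnt3a (log2 change 0.09, limma adjusted p = 0.121). Changes were 0.07 for Tpi1 (limma adjusted p = 0.106) and 0.07 for Pkm (limma adjusted p = 0.101).

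**Figure D3:**
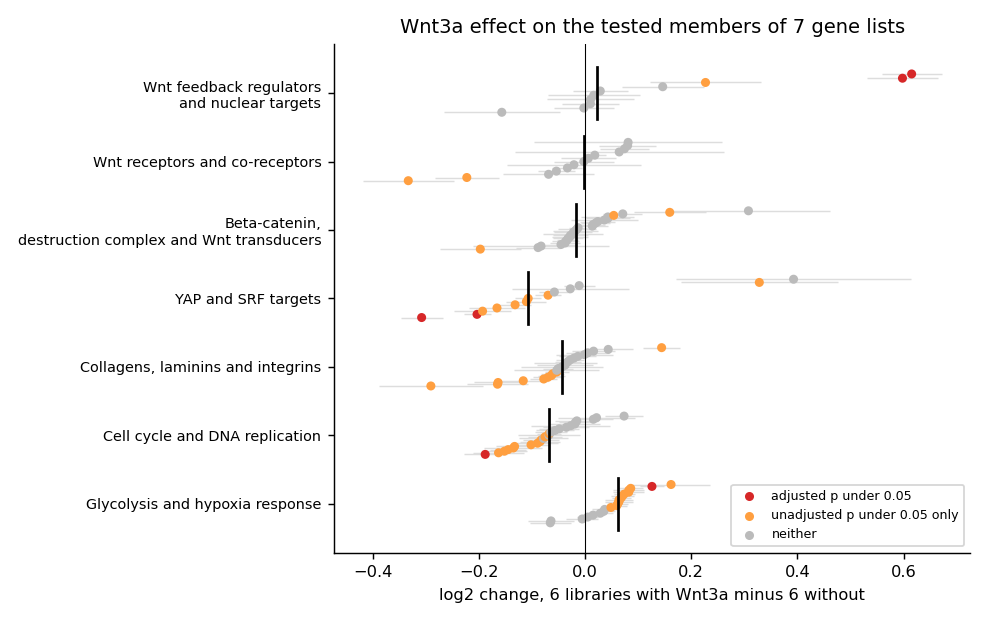
Log2 change (6 libraries with Wnt3a minus 6 without, menthol as a covariate) of the tested members of 7 gene lists. Points are genes, whiskers are the SE, black lines are medians, and colours give the adjusted and unadjusted p under 0.05. The Wnt feedback list has 2 called genes far to the right, above 0.5, and its other members between −0.16 and 0.23, while the cell cycle list lies mostly to the left and the glycolysis list mostly to the right.

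In other signaling lists the genes called were 1 to 3 of each list or none, and the share called over all tested genes was 0.742%. Of 18 tested cAMP and protein kinase A genes, Prkar1b, a regulatory subunit of the kinase, rose (10.5 to 12.2 FPKM, log2 change 0.22, limma adjusted p = 0.012) and Akap12 fell (11.1% called), with a list median of −0.00657. Prkaca, the catalytic subunit, had a change of −0.05 (limma adjusted p = 0.589). Of 19 tested FoxO factors and targets, Bnip3, a mitophagy receptor, rose, and Cited2 and catalase (Cat) fell (15.8% called). Bnip3 was at 136, 135 and 135 FPKM in control, 148, 147 and 141 with menthol, 159, 152 and 154 with Wnt3a, and 158, 153 and 153 with menthol and Wnt3a together. The 3 libraries with Wnt3a alone were higher than those with menthol alone and the controls were the lowest, so the change was smaller in menthol (0.20 without and 0.09 in menthol, limma adjusted p = 0.715 for the difference). Cited2, a transcriptional co-regulator, fell from 151.1 to 135.6 FPKM (log2 change −0.16, limma adjusted p = 0.0029), and Cat by 0.12 (limma adjusted p = 0.0357), the latter called in 2 of the 12 fits that left out 1 library. Of 11 tested genes of the BMP and TGF-β response, Id1, an inhibitor of helix-loop-helix factors, rose from 10.5 to 12.6 FPKM (log2 change 0.26, limma adjusted p = 0.015, 9.09% of the list called). Of 20 immediate early genes, Ier3 rose by 0.17 (limma adjusted p = 0.00744) and Jun fell (10% called). None of the 8 tested Notch genes or of the 14 tested ERK feedback genes was called. Gli3 was the 1 called gene of 6 tested in the Hedgehog list (16.7%).

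KEGG pathways, as annotated in the deposited table, were compared by the share of their tested genes that was called, among those with at least 10 tested and at least 2 called in a direction. Smaller pathways with 1 called gene reached higher shares and are not listed. The shares are read against 0.419% raised and 0.323% lowered among all tested genes. Among them, the highest share raised was in the pathways regulating pluripotency of stem cells, with 4 of 90 tested genes raised (Axin2, Isl1, Id1 and Jak2) and 1 lowered (Il6st). It was followed by TGF-beta signaling (2 of 59 raised, 1 lowered), cytokine-cytokine receptor interaction (3 of 89 raised, 3 lowered), Th17 cell differentiation (2 of 63 raised, 2 lowered) and mitophagy (2 of 67 raised, 2 lowered). The 3 raised genes of the cytokine pathway were Tnfrsf19, Il33 and Tgfbr1, and the 3 lowered were Il1rl1, Il6st and Csf1. The highest shares lowered under the same minimum were each from 2 genes, in cocaine addiction (of 22 tested) and amphetamine addiction (of 34) through Jun and Creb3l2, in viral protein interaction with cytokines (of 25) through Il6st and Csf1, in glyoxylate and dicarboxylate metabolism (of 26) through Glul and Cat, and in inflammatory bowel disease (of 27) through Maf and Jun. In Wnt signaling, 1 of 99 tested genes rose and 1 fell. In Hippo signaling 3 of 104 rose and 1 fell, in FoxO signaling 2 of 106 rose and 2 fell, in cAMP signaling none of 92 rose and 3 fell (Jun, Gli3 and Creb3l2), in calcium signaling 1 of 84 fell (Sphk1), and in Hedgehog signaling 1 of 39 fell (Gli3).

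The change with Wnt3a was then measured apart in the libraries without menthol (3 against 3) and with menthol (3 against 3). These 2 contrasts share no library, but they share 1 estimate of the spread. Without menthol, 50 genes were called (0.437%), of which 48 had the same sign in menthol (96%) and 34 also had an unadjusted p under 0.05 there (68%). Among genes not called without menthol, these shares were 56.2% and 4.53%. In menthol, 11 genes were called (0.0961%). All 11 had the same sign without menthol and 10 of them an unadjusted p under 0.05 there, against 56.4% and 10.2% of the genes not called in menthol. Both contrasts called 7 genes. These counts depended strongly on single libraries. With 1 library left out, the 50 became 6 (without control replicate 3) to 291 (without Wnt3a replicate 3), moving by over 1.5 times in 10 of the 12 fits, and the 34 became 6 to 67 in the same fits. Likewise the 11 became 3 (without menthol replicate 1, or without replicate 1 or 3 of menthol with Wnt3a) to 14 (without control replicate 1), so the sizes 50 and 11 are not compared. Of the 85 genes called over all 12 libraries, 49 were called in neither contrast alone.

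All 85 called genes had the same sign and an unadjusted p under 0.05 in each contrast. The fit over 12 libraries averages the 2 contrasts, so that this follows in part from the call, and over all tested genes 191 (1.67%) had both p-values under 0.05 with the same sign and 26 (0.227%) with opposite signs. The median size of the change of the 85 was 0.20 without menthol and 0.18 in menthol, and 54 of them had the smaller change in menthol. Klf5 had nearly the same change in both (0.46 without and 0.48 in menthol), while Axin2 had 0.51 and 0.72, and Thbs1 −0.41 and −0.25. The difference between the contrasts, the interaction of Wnt3a and menthol, was called by limma for 0 genes, with 800 (6.99%) at an unadjusted p under 0.05 and 0 called by limma voom on the recovered reads. Among the 85 called genes, the unadjusted limma p of the interaction was under 0.05 for 6, namely Thbs1, Bnip3, Rab13, Enc1, Lipa and Gli3, each with a limma adjusted p of 0.715. No gene of the 85 was therefore shown to respond differently in menthol. Across all tested genes, which are not independent replicates and share the libraries' depth, the correlation of the 2 changes was r = 0.11 (n = 11451 genes).

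**Figure D4:**
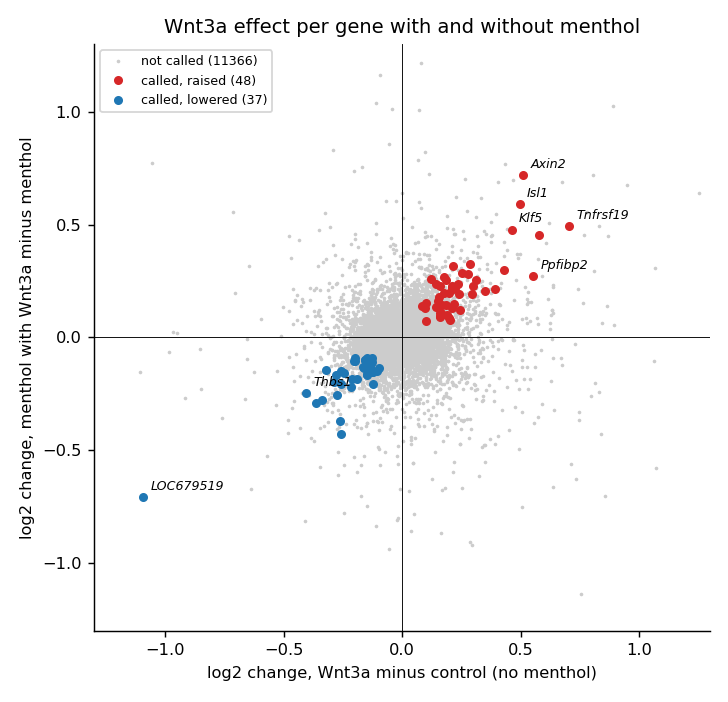
Log2 change per gene with Wnt3a, without menthol (x axis) and in menthol (y axis), each 3 libraries against 3. Red and blue points are the 48 raised and 37 lowered called genes, grey points the other tested genes, and 5 points lie outside the range shown. The called genes fall at the lower left and upper right, and the grey points form a cloud around 0.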

How the data were processed

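The 12 RNA-seq libraries of ND7/23 cells form 4 groups of 3. Per the submitters' processing notes the tools were fastp, HISAT, HTSeq, R 3.2.0 and DESeq2, with the build mRatBN7.2. The settings of alignment and counting are not given in the sources used here, and the study's own differential test used DESeq2 with a q-value limit of 0.05 and a fold limit of 2. The authors deposited FPKM values for 21556 genes, with no columns outside the 12 samples. Each gene's values were whole multiples of 1 read, and whole reads were recovered for 100% of the genes (within 3.4e-13 relative), of which 1804 were above 0 in 1 library only.

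Values of log2(FPKM + 0.1) were fitted by limma (R 4.3.3, limma 3.58.1) for the 11451 genes whose mean reached 0.5 FPKM, with menthol and Wnt3a as additive terms and a variance trend. Calls required a Benjamini-Hochberg adjusted p under 0.05. The contrasts with and without menthol and the interaction came from a fit of 4 group means. The fits were tested on simulated data. Reads on genes numbered 36914722 to 38837023 per library, and counting intervals were not needed as replicates gave the error. Alternatives changed the pseudocount, the FPKM minimum, the centring, the trend, the terms and the fold threshold, used a replicate block, left out each library, or used limma voom on recovered reads. Fits of the 6 libraries of each contrast apart were added after seeing the data.

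The genes named were the 12 largest rises and the 12 largest falls among called genes, called members of 25 gene lists, and the KEGG pathways with at least 10 tested genes, at least 2 called in a direction and the 5 highest shares called in that direction, plus 7 fixed pathways. Members and lists were chosen with earlier results of these data known. Promoters came from RefSeq (GRCr8), matched for 69 of 85 called genes. Some genes of the pathways are not reported here.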

Additional observations from a re-analysis of the deposited data

How the results depend on the processing

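All 85 called genes kept their direction under every alternative, 28 were called in all 22 that kept the adjusted p alone, and 44 in all 12 fits that left out 1 library. The count over 12 libraries (85, with 48 raised and 37 lowered) was 54 without an FPKM minimum (31 and 23), 43 without a variance trend (26 and 17), 221 by limma voom on recovered reads (99 and 122, 81 of them shared), 0 with a 2-fold threshold (0 and 0) and 53 without the menthol term (21 lowered). Leaving out 1 library gave 54 to 83 called, and the lowest were 54 without control replicate 1 or 2 and 55 without control replicate 3. Raised genes then numbered 30 to 47 and lowered 21 to 44. Without menthol, the count of 50 became 9, 2, 303, 2 and 17 (no minimum, no trend, voom, 2-fold, 6 libraries fitted alone) and 6 to 291 with 1 library left out, with 291 without Wnt3a replicate 3 and 6 without control replicate 3. In menthol, 11 became 2, 2, 33, 0 and 4 in the same order, 5 with libraries centred on their median, and 3 to 14 with 1 library left out. The interaction called 1 gene without an FPKM minimum, and 0 to 1 with 1 library left out (1 without control replicate 1 or menthol with Wnt3a replicate 1). Calls without menthol with the same sign and an unadjusted p under 0.05 in menthol (34) numbered 8 with no minimum, 2 with no trend, 94 by voom, 13 in separate fits, and 6 to 67 with 1 library left out. The reverse count (10) was 2, 2, 27 and 3 in that order, 5 after centring, and 3 to 12 with 1 library left out. Lower members at an unadjusted p under 0.05 numbered 7 to 12 for the cell cycle list, 5 to 9 for collagens, and 3 to 8 for sterol synthesis, which was 3 without a trend. The median of the Wnt feedback list was −0.000182 to 0.057 with 1 library left out, with the negative value without menthol with Wnt3a replicate 3. Where the cause of a shift is not in the alternative's construction it was not tested. The correlation of same-numbered libraries was −0.0551 to 0.153, with 1 of 18 pairs over 0.1. In 9 of the 18 a library correlated best with its own number in the other group. Whether libraries of the same number share more than the number is not given in the labels and was not tested. The fit with the number as a replicate block called 112 genes, 82 of them shared. Genes with few reads, such as LOC679519, are limited by depth.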

Other observations

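Outside the comparisons above, the KEGG ribosome pathway was chosen after its values were seen. The lists here, as above, were chosen with earlier results of these data known. Of 159 tested genes of the KEGG ribosome pathway, which encode the proteins of both ribosomal subunits, none was called and 127 were higher with Wnt3a. At an unadjusted p under 0.05, 53 were higher and 3 lower. Over all tested genes, 7.33% were higher and 6.29% lower at that threshold. The median change of the ribosome genes was 0.06 over 12 libraries, 0.11 without menthol and 0.0051 in menthol. Of 21 tested genes of sterol synthesis, 16 were lower with Wnt3a, and the median was −0.04. At an unadjusted p under 0.05, 6 were lower and 1 was higher. Of 15 tested genes of axon guidance and synapses, 11 were lower, with a median of −0.07. At an unadjusted p under 0.05, 6 were lower and 1 was higher. None of the genes of these 3 groups was called. Of 22 tested genes of ribosome biogenesis, 17 were lower and none was called.

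The smallest p for the interaction belonged to Fbxo32, an E3 ubiquitin ligase known for muscle atrophy, with 13 to 38 reads per library. It was at 0.807, 0.873 and 0.934 FPKM in control, 0.422, 0.373 and 0.37 with menthol, 0.395, 0.386 and 0.324 with Wnt3a, and 0.525, 0.905 and 0.824 with both. The log2 change with Wnt3a was −1.05 without menthol and 0.77 in menthol, a difference of 1.83 (limma adjusted p = 0.0956, and 0.0114 to 0.52 among all alternatives). Without menthol with Wnt3a replicate 1 the difference was 2.04 (limma adjusted p = 0.0114, the lowest of that range). It failed the correction with all 12 libraries.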
